A study of Arabidopsis thaliana with 8 samples.

Results

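Roots and shoots of Arabidopsis thaliana were compared on the 4 arrays of the potassium chloride (KCl) control, which received no nitrate. The members were taken from the sample titles: 2 root samples and 2 shoot samples in KCl, 4 of the 8 samples in the series. The other 4 samples hold the same organs after potassium nitrate and serve here as a separate set of arrays. All plants were wild-type seedlings of the Col-0 accession, aged 10 days, kept in liquid culture under constant light. Salt was supplied at 250 µM for 20 min in every group, as KCl in the groups compared here and as potassium nitrate in the others. Every group held 2 samples, and the labels do not say whether these came from separate cultures, so the p-values speak only of the spread within each pair of samples, and that spread could be technical. Each sample is a whole organ, so fewer cells of a type and less RNA per cell cannot be told apart.

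Leaves and stems capture light in chloroplasts, whose photosystems are built from proteins encoded in the nucleus and in the plastid genome. Roots take up water and ions through hairs and through an endodermis sealed by lignin and suberin, and their walls are extended and crosslinked by expansins, extensins and class III peroxidases. Each organ also carries its own branches of specialised metabolism, such as terpenes and triterpenes in roots and flavonoid pigments in shoots.

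The values are array signals, which measure hybridisation of labelled RNA to a probe set on the ATH1 array and have no absolute unit. The trimmed mean was 100.01 on all arrays, so each signal is relative to the rest of its own array, and signals of different probe sets were not set against each other. Median signals on the KCl arrays were 43.4 and 45.4 in roots and 44.6 and 49.9 in shoots. Labels were checked against organ markers. The leaf markers RCA, PRK and SBPASE, which encode Rubisco activase and enzymes of the Calvin cycle, summed to 182 and 253 in roots and to 6882 and 4442 in shoots. The root markers EXPA7 and EXPA18, root hair expansins, and the peroxidase gene AT5G66390 summed to 638 and 794 in roots and to 53.5 and 56.7 in shoots. The shoot arrays stood further apart from each other than the root arrays did, with an SD of the log2 difference between the arrays of an organ of 0.51 in shoots and 0.31 in roots. ICL, which encodes isocitrate lyase of seed oil use, had signals of 3049 and 63.2 in shoots and 462 and 59.9 in roots, higher on the array numbered 1 in both organs. Its part in the results below was not tested.

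Of the 22746 probe sets tested, 4536 (19.9%) were called different between the organs by limma at an adjusted p under 0.05. Higher signals in roots were called for 2149 probe sets (9.45%) and higher signals in shoots for 2387 (10.5%). The arrays of the organs did not overlap for 13436 probe sets (59.1%), and all 4536 calls were among them. Differences of at least 16-fold on the log2(signal + 16) scale, a scale that understates differences of low signals, were called for 42 probe sets in the direction of roots and for 122 in the direction of shoots. For 875 calls in the direction of roots, both shoot arrays lay below a signal of 33.3, the 40th percentile of mean signals. For 1106 calls in the direction of shoots, both root arrays lay below it. The number of calls fell to 1623 without root array 1 and to 1483 without root array 2, and it was 5258 or 6407 without shoot array 1 or 2. Below, a call missed without either root array is one that was lost whichever of the root arrays was left out. A gene record was found for 13436 probe sets of 1 gene each, and taking 1 probe set per gene, 1115 of 13286 genes (8.39%) were called higher in roots and 1126 (8.48%) higher in shoots, 16.9% in all. The counts of gene families below stand beside these shares and cover only genes with a probe set that has a gene record. Families found by words cover only genes whose record names the family in its symbol or synonyms, so other members can be missing. A symbol other than the locus was found for 1551 of the 13436 probe sets. The word rule for class III peroxidases found 1 gene, whereas a list by locus held 55 with a record. Of 432 loci in 26 lists, 61 had a probe set with a gene record. The others may lie among the probe sets without a record, which were tested but not named. Families listed by locus or symbol after the values were known (class III peroxidases, extensins, terpene synthases, dirigent proteins, flavonoid genes, plastid-encoded genes, the chloroplast NDH complex, beta expansins, family 9 endoglucanases, and the TBL, SWEET, GH3, beta-glucosidase and carboxypeptidase-like genes) are described only, and no test was made of a family.

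**Figure D1:**
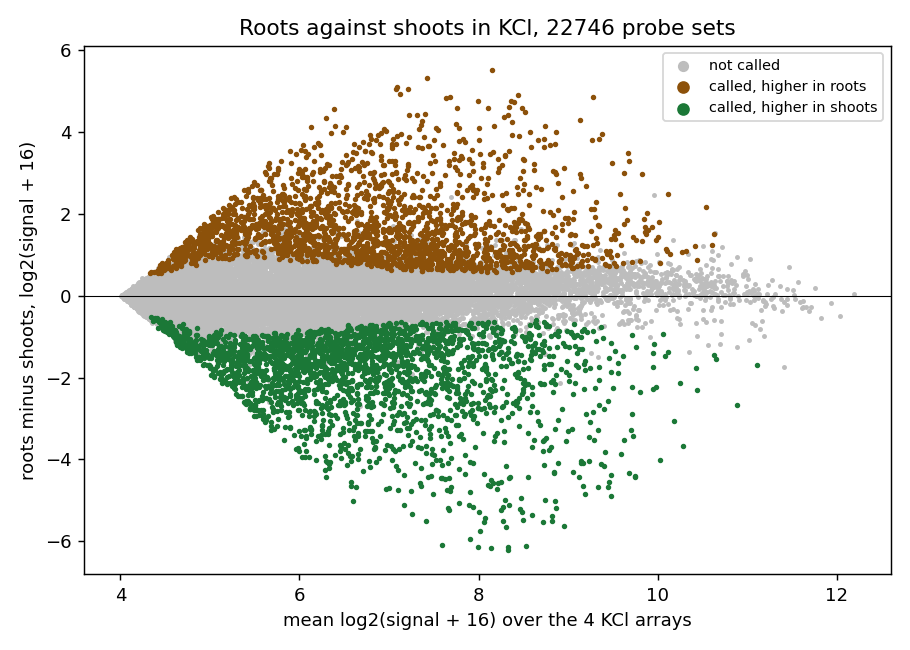
Difference between roots and shoots in KCl (vertical axis, log2(signal + 16)) against the mean over the 4 KCl arrays (horizontal axis, log2(signal + 16)), 1 point per probe set. Brown points are the 2149 probe sets called higher in roots, green points the 2387 called higher in shoots, and grey points the rest; the wedge at low means comes from the added 16.

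Among named genes, wall peroxidases and enzymes of specialised metabolism led the root side. The 15 named genes with the largest differences in this direction lay 4.18 to 5.30 higher in roots on the log2(signal + 16) scale. Probe sets without a record reached 5.51, so the make-up of the 15 depends on naming. Class III peroxidases, secreted enzymes that oxidise phenolics and crosslink the wall, gave 5 of the 15. AT3G01190, the first of them, had signals of 998 and 1134 in roots and 20.5 and 4.53 in shoots. No shoot array came near either root array, and the difference was 5.30 ± 0.30 (SE; limma, adjusted p = 0.000628). AT4G26010 had 1190.0 and 1427 in roots and 45.5 and 22.99 in shoots, and AT5G17820 had 964 and 1142 in roots and 23.02 and 34.1 in shoots. AT3G49960 was near the bottom of the signal range in shoots, with 325 and 464 in roots and 1.69 and 0.80 in shoots. AT1G30870 had 630.3 and 741 in roots and 29.1 and 17.1 in shoots.

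The other 10 genes took in transport, specialised metabolism and lipid-recognition proteins. AT3G45710, a member of the NRT1/PTR transporter family, had signals of 828 and 844 in roots and 9.11 and 10.9 in shoots, a difference of 5.04 ± 0.16 (SE; limma, adjusted p = 0.000545). AT2G21045, which encodes an arsenate reductase, had 1819.7 and 1568 in roots and 70.5 and 30.2 in shoots. AT5G47980, an acyltransferase gene of the thalianol triterpene cluster, had 726 and 624 in roots and 32.3 and 5.61 in shoots, and AT3G32030, a terpene synthase gene, had 352 and 325 in roots and 1.21 and 1.76 in shoots. AT3G13610 encodes the hydroxylase that makes scopoletin, a coumarin secreted by roots, and had 1428 and 1404 in roots and 99.8 and 34.2 in shoots. Both shoot arrays were far below both root arrays for these genes, although shoot array 1 was above shoot array 2 for AT2G21045, AT5G47980 and AT3G13610. AT5G23840 and AT2G16005 encode MD-2-related lipid-recognition proteins. The former had 690.2 and 741 in roots and 43.2 and 4.25 in shoots, and the latter 1118 and 448 in roots and 49.6 and 5.80 in shoots, with the widest spread between root arrays among the 15. AT2G16005 was the only one of the 30 genes with the largest differences to lose its call under an alternative fit, without root array 1. AT1G14960, a major-latex-protein-like gene, had 3174 and 3448 in roots and 142 and 69.3 in shoots, AT1G64590, a short-chain dehydrogenase gene, 1563 and 1896 in roots and 75.5 and 49.8 in shoots, and AT5G04120, which resembles phosphoglycerate mutases, 1607 and 1554 in roots and 79.1 and 29.5 in shoots.

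**Figure D2:**
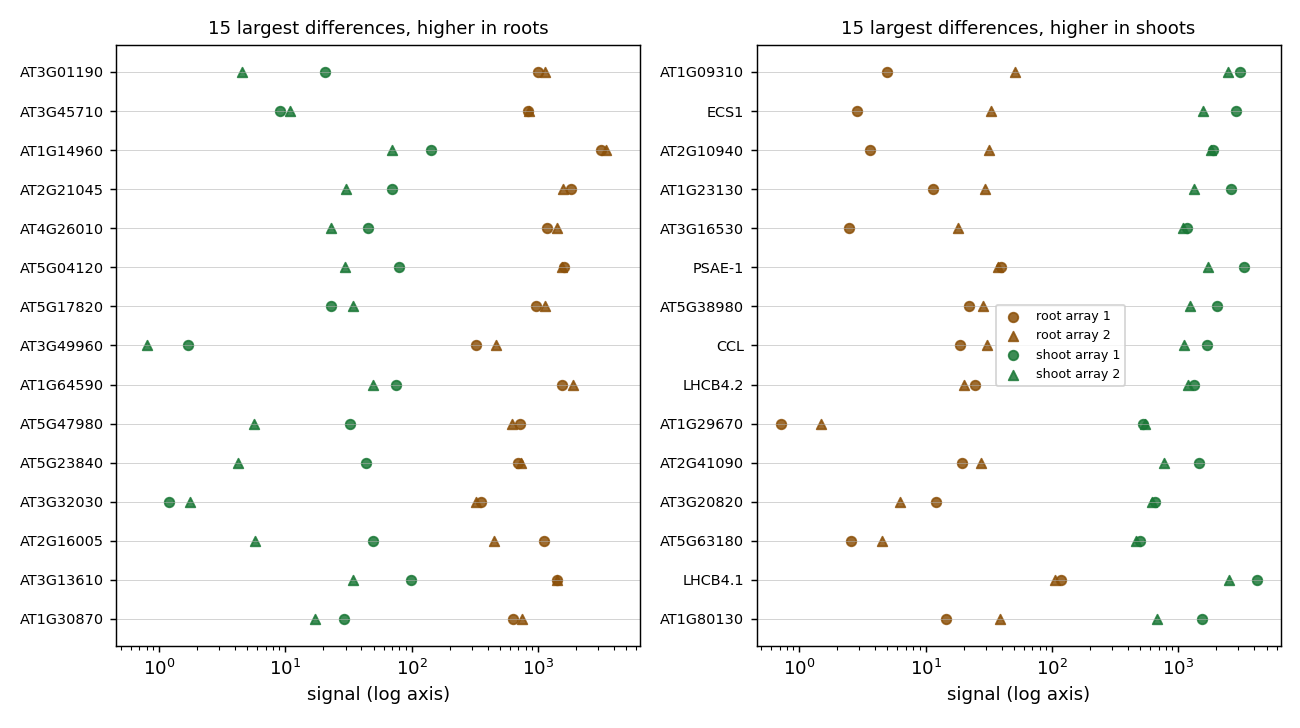
Signals on the 4 KCl arrays (horizontal log axes) for the 15 named genes with the largest difference in each direction, ordered by the size of the difference on the log2(signal + 16) scale. Brown symbols are root arrays and green symbols shoot arrays, circles for array 1 and triangles for array 2. The rule that chose these genes required the organs to be separated in every row. Root arrays of the shoot genes AT1G09310, ECS1 and AT2G10940 lie further apart than the shoot arrays.

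On the shoot side the differences were larger, from -4.66 to -6.21 (roots minus shoots) on the log2(signal + 16) scale. AT1G09310, which encodes a protein of unknown function with a DUF538 domain, had signals of 4.93 and 50.9 in roots and 3069 and 2490.2 in shoots, a difference of -6.21 ± 0.54 (SE; limma, adjusted p = 0.00158). ECS1, a small secreted protein gene, had 2.85 and 32.99 in roots and 2891 and 1576 in shoots, and AT2G10940, which encodes a protein like lipid transfer proteins, 3.62 and 31.9 in roots and 1884 and 1827 in shoots. Root array 2 was higher than root array 1 for these 3 genes, and both stayed far below the shoots. AT3G16530, a legume-type lectin gene, had 2.49 and 18.2 in roots and 1164 and 1100.5 in shoots. AT1G23130, of the major latex protein group as AT1G14960 is, ran the opposite way to that gene, with 11.4 and 29.6 in roots and 2623 and 1335 in shoots. AT1G29670, a GDSL lipase gene, had signals near the bottom of the range in roots, 0.71 and 1.502 in roots and 526 and 545 in shoots. CCL, whose transcript is known to be controlled by the circadian clock, had 18.7 and 30.8 in roots and 1705 and 1117 in shoots. AT5G63180, a gene of pectin lyase type, had 2.58 and 4.49 in roots and 501 and 467 in shoots. Photosynthesis gave 3 of the 15: PSAE-1, a photosystem I subunit, and the antenna genes LHCB4.2 and LHCB4.1. This count depends on naming, as 3 of 21 listed light-harvesting genes had a probe set with a gene record. For the photosystem list it was 5 of 33, and probe sets without a record reached -6.15. The remaining 4, AT5G38980, AT2G41090, AT3G20820 and AT1G80130, were -5.28, -4.78, -4.70 and -4.66 on the same scale.

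Genes of the photosynthetic apparatus separated the organs together. Of 14 genes found by photosynthesis terms in their names, 13 were called higher in shoots and none higher in roots, with a median difference of -4.40 on the log2(signal + 16) scale against 0.00 over all genes with a record. The exception, TAAC, a thylakoid ADP/ATP carrier that was singled out after its value was seen, differed by 0.17. PSAE-1 had signals of 39.6 and 37.2 in roots and 3312 and 1724 in shoots, and PSAN, another photosystem I subunit, 42.6 and 42.5 in roots and 1683 and 1146 in shoots. PSBY of photosystem II had 65.9 and 64.4 in roots and 1931 and 1528 in shoots, and ATPC1, the gamma subunit of the chloroplast ATP synthase, 96.9 and 77.3 in roots and 2575 and 1619 in shoots. Of 33 genes in the list of photosystem and ATP synthase genes, 5 had a probe set with a gene record, and all 5 were called. Signals in roots were far below those in shoots. Root arrays were close for PSAE-1, PSAN and PSBY and further apart for ATPC1, whereas shoot array 1 was above shoot array 2 for each of these 4 genes.

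The antenna of photosystem II showed the range within this set. LHCB4.1 had signals of 118 and 105 in roots and 4181 and 2527 in shoots, and LHCB4.2 had 24.7 and 20.1 in roots and 1322 and 1189 in shoots. LHCB4.3, the third gene of the same antenna protein, had 58.3 and 48.7 in roots and 386 and 167 in shoots, a smaller difference of -1.97 ± 0.38 (SE; limma, adjusted p = 0.0198) that missed the threshold when either root array was left out. Among Calvin cycle genes, RCA had 115 and 171 in roots and 4194 and 2492 in shoots, PRK, phosphoribulokinase, 35.6 and 44.1 in roots and 1528 and 1198 in shoots, and SBPASE, sedoheptulose bisphosphatase, 31.4 and 37.99 in roots and 1160.3 and 752 in shoots. The phosphoglycerate kinase gene AT1G56190, singled out after its value was seen, was the only member of 4 that was not called, at -0.50. The chloroplast NDH complex, which carries electrons around photosystem I, followed: 7 of 8 nuclear genes of its subunits and of its assembly or editing factors were higher in shoots (87.5%). Its subunit genes NdhS, NdhL and NdhN differed by -2.77, -2.25 and -1.79, and CRR42 by -2.03. The number called in this complex was 2 without root array 1 and 3 without root array 2.

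Transcripts of the plastid genome ran in the same direction but with more spread between arrays. The 69 plastid-encoded genes that had a probe set with a gene record all had lower mean log2 signals in roots. Of them 44 (63.8%) were called higher in shoots, with a median difference of -2.01. The reaction-centre gene psbA had 28.1 and 37.8 in roots and 1878 and 351 in shoots, and psaB of photosystem I had 62.8 and 155 in roots and 971 and 1108 in shoots. The ATP synthase gene atpA had 50.7 and 234 in roots and 1332 and 1503 in shoots, and psaJ 67.9 and 221 in roots and 1012 and 1308 in shoots. In psbA the shoot arrays were wide apart, and in all 4 genes root array 2 was above root array 1. Over the whole set root array 2 was above root array 1 for 65 of 69 genes and shoot array 2 above shoot array 1 for 57 of 69. Summed signals were 6506 and 12879 in roots and 39173 and 47954 in shoots. The number called was 11 without root array 1, 29 without root array 2, 51 without shoot array 1 and 32 without shoot array 2. The call of psbA was missed without either root array. The part of this shift between arrays of an organ in the result was not tested.

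**Figure D3:**
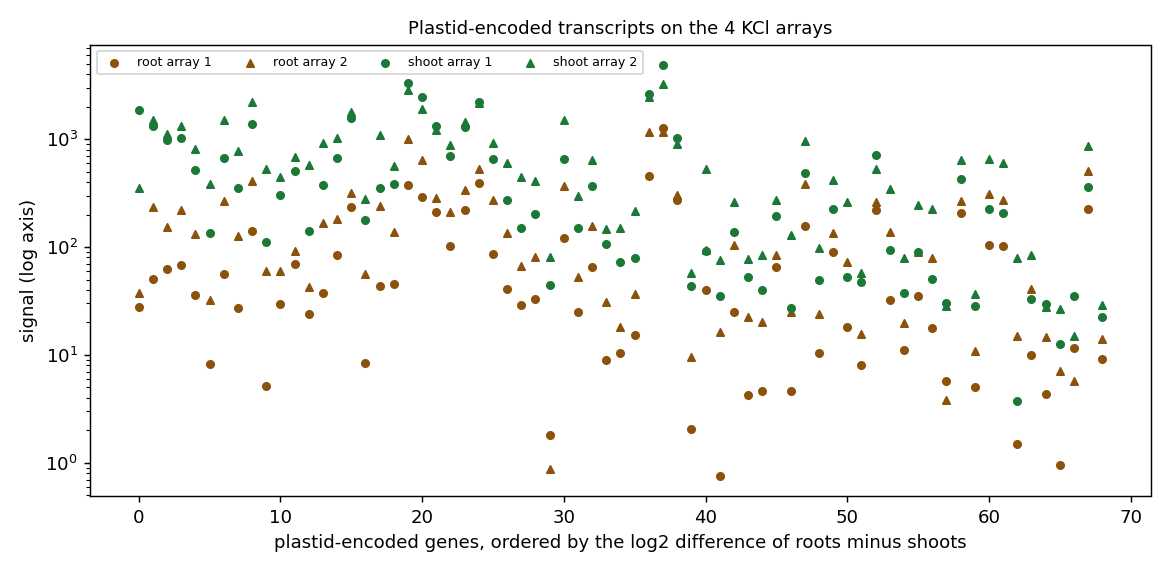
Signals (vertical log axis) of the 69 plastid-encoded genes on the 4 KCl arrays, ordered from the most negative log2 difference of roots minus shoots on the left. Brown symbols are root arrays and green symbols shoot arrays, circles for array 1 and triangles for array 2; the root triangles lie above the root circles for 65 genes.

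Pathways that feed or serve photosynthesis were higher in shoots with named exceptions. Photorespiration recycles the product of Rubisco's oxygenase reaction through chloroplast, peroxisome and mitochondrion. Of its 6 genes that had a probe set with a gene record, 5 were called higher in shoots and 1 higher in roots. HPR, the peroxisomal hydroxypyruvate reductase, had 36.9 and 50.2 in roots and 1625 and 863 in shoots, and LrgB, the plastid glycolate and glycerate transporter, 35.9 and 23.9 in roots and 235 and 289 in shoots. Glycine decarboxylase, the mitochondrial step, was split between organs. AT1G32470, which encodes its H protein, had 62.1 and 46.01 in roots and 959 and 517 in shoots, whereas AT2G35120, another H protein gene that was singled out after its values were seen, had 811 and 813 in roots and 249 and 236 in shoots. Its difference was 1.68 ± 0.15 (SE; limma, adjusted p = 0.00184). All arrays of one organ lay on one side for both H protein genes, as for every call. AT1G80380, the glycerate kinase gene that closes the cycle, had 72.2 and 61.4 in roots and 268 and 253 in shoots and is taken up again below.

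Chlorophyll synthesis was higher in shoots for 4 of 6 genes. PORB, the light-dependent protochlorophyllide reductase, had 48.9 and 58.3 in roots and 1454 and 1561 in shoots. AT1G74470, geranylgeranyl reductase, had 133 and 87.1 in roots and 1584 and 1285 in shoots, and CHLM, a methyltransferase of the magnesium branch, 74.9 and 71.3 in roots and 464 and 611 in shoots. CHLI2, a magnesium chelatase subunit, had 4.98 and 1.03 in roots and 78.7 and 68.4 in shoots, with both root arrays at the bottom of the range, and its call was missed without root array 2. The early genes of the tetrapyrrole pathway, HEMA2 and GSA1, were not called, with differences of -0.23 and -0.70; both were singled out after their values were seen. Of 4 starch genes 3 were called higher in shoots: APL3, a large subunit of ADP-glucose pyrophosphorylase, at -2.38, the branching enzyme gene SBE2.2 at -1.81 and the disproportionating enzyme gene DPE1 at -1.31, which was missed without either root array. Of 13 listed carotenoid genes, 1 had a probe set with a gene record, the lycopene cyclase gene LYC. LYC had 88.2 and 83.1 in roots and 197 and 193 in shoots, and missed the threshold without either root array.

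Flavonoid and anthocyanin genes were called higher in shoots for 5 of 7 (71.4%) and in roots for none. DFR, dihydroflavonol reductase at the entry to anthocyanins, had 11.8 and 31.1 in roots and 526 and 266 in shoots. Decorating enzymes accompanied it: AT4G14090, an anthocyanin 5-O-glucosyltransferase gene, had 1.12 and 0.44 in roots and 92.7 and 104 in shoots, and UF3GT had 17.5 and 10.98 in roots and 232 and 137 in shoots. UGT78D1, a flavonol rhamnosyltransferase, had 6.80 and 12.3 in roots and 149 and 103 in shoots, while its relatives UGT78D2 and UGT78D3, singled out after their values were seen, differed by 0.18 and 0.01 and were not called. Every shoot array exceeded both root arrays for the 5 genes called, but the organs did not overlap for any of the 4536 calls.

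Regulators of leaf and root form were mostly of low signal, and few had a probe set with a name. YAB5 and YAB3, YABBY transcription factors that mark the lower side of leaves, are an example. YAB5 had 2.39 and 1.71 in roots and 107 and 89.3 in shoots, and YAB3 had 16.03 and 13.6 in roots and 83.5 and 91.3 in shoots. The call of YAB3 was missed without either root array, and so was that of AGL24 below. STOMAGEN, the mesophyll peptide that promotes stomata, had 0.94 and 1.32 in roots and 116 and 90.2 in shoots, whereas the stomatal lineage regulators SPCH, MUTE and FMA were not called, with differences of -0.55, -0.18 and -0.78; these 3 were singled out after their values were seen. In the other direction, the MADS-box genes AGL21 and AGL42, known from root tissues, were low in shoots. AGL21 had 77.4 and 68.1 in roots and 0.98 and 0.68 in shoots, and AGL42 had 72.9 and 57.3 in roots and 2.43 and 1.55 in shoots. Of 42 MADS-box genes found by words, these 2 were called higher in roots (4.76%). The 2 called higher in shoots (4.76%) were AGL24, which promotes flowering, at -1.38, and AGL87 at -2.73. Over all genes with a record the shares were 8.39% and 8.48%, so MADS-box genes were called less often than genes at large. The 4 MADS-box calls became 11 without shoot array 2.

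Root hairs and the endodermis were represented by few genes, all called higher in roots. EXPA7 had 129.7 and 176 in roots and 25.4 and 8.63 in shoots, EXPA18 had 237 and 284 in roots and 2.07 and 35.1 in shoots, and XTH26, a xyloglucan-modifying enzyme of root hairs, had 63.9 and 63.7 in roots and 1.18 and 1.15 in shoots. Shoot arrays of EXPA7 and EXPA18 differed widely at low signal, and both calls were missed without either root array. GSO1, the receptor kinase that oversees closure of the Casparian strip, had 195 and 299.6 in roots and 33.3 and 35.7 in shoots, and AT1G61590, the kinase gene that acts with it, had 171 and 192 in roots and 44.1 and 23.03 in shoots. HCT, an enzyme of lignin precursor synthesis, had 1340.5 and 1396 in roots and 458 and 541 in shoots, a smaller difference of 1.43 ± 0.19 (SE; limma, adjusted p = 0.00605). The calls of AT1G61590, HCT and NAI2 were missed without either root array. The endoplasmic reticulum body gene NAI2 had 1603 and 1675 in roots and 584 and 477 in shoots, whereas PYK10, the glucosidase stored in those bodies, had 3083 and 3727 in roots and 3214 and 2253 in shoots and was not called; PYK10 was singled out after its values were seen.

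Class III peroxidases were called higher in roots for 20 of 55 genes that had a probe set with a gene record (36.4%). Higher signals in shoots were called for 2 (3.64%). The list was made after 5 of its members had been seen among the largest differences. Differences of the 20 ran from 0.68 to 5.30, and the 33 genes not called lay between -0.82 and 1.79. The median over the 55 was 0.56. Without either root array 15 genes of the family were called, and without shoot array 1 or 2 it was 24 or 27. AT5G66390, the marker, had 271 and 335 in roots and 26.05 and 12.9 in shoots. The members higher in shoots, named after their values were seen, were AT5G58390, with signals of 10.8 and 15.6 in roots and 165 and 195 in shoots, and AT1G71695, with 85.9 and 70.9 in roots and 437 and 520 in shoots.

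Wall proteins and wall-loosening enzymes added to the root side. Extensins, rod-like glycoproteins of the wall, were called higher in roots for 7 of 11 genes (63.6%) and in shoots for none, with a median of 2.87. AT3G28550 had 240.01 and 229.98 in roots and 7.74 and 1.55 in shoots, AT1G26250 had 498 and 259 in roots and 11.8 and 24.5 in shoots, and HRGP1 had 996 and 1416 in roots and 122 and 104 in shoots. Extensin genes share repeats, and AT5G06630 and HRGP1 are measured by probe sets marked as open to cross-hybridisation, so these members may not be independent. Of 10 alpha expansins, which loosen walls during growth, 5 were higher in roots and 1 in shoots. The number of alpha expansins called was 4 without root array 1 and 1 without root array 2. EXPA15 had 472 and 721 in roots and 79.5 and 100.2 in shoots, and EXPA4 had 679 and 942 in roots and 121 and 209.9 in shoots. EXPA8, the member higher in shoots and named after its values were seen, had 66.4 and 41.9 in roots and 256 and 193 in shoots.

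Other wall families showed a mixture. The beta expansin EXPB3 had 803 and 1252 in roots and 125 and 186 in shoots, and EXPB1 differed by 1.51, a call missed without either root array. Among 15 endoglucanases of glycosyl hydrolase family 9, 4 were higher in roots (26.7%) and none in shoots, led by GH9C1 with 231 and 317 in roots and 30.4 and 14.96 in shoots. GH9B8, GH9C2 and GH9B13 differed by 2.04, 1.79 and 1.54. Without root array 2 there were 2 calls in this family. Xyloglucan endotransglucosylases divided, with 4 of 9 higher in roots and 2 higher in shoots. XTH19 had 252 and 329.6 in roots and 48.6 and 69.6 in shoots, in contrast to XTH16 with 97.2 and 86.5 in roots and 257 and 497 in shoots and XTH32 at -1.32. Without root array 1 or 2 this family had 3 or 2 calls, and XTH16 and XTH32 were not among them. Pectin methylesterase genes ran towards shoots, with 3 of 4 called: ATPMEPCRB had 35.3 and 29.6 in roots and 159 and 351 in shoots, and PME61 and PMEPCRF differed by -1.46 and -0.91. All 3 were missed without either root array. The TBL genes, whose family acetylates wall polysaccharides, were called in roots for 6 of 22 and in shoots for 3, among them TBL21 at 2.25, TBL30 at 2.04, TBL34 at 1.87 and TBL45 at -2.22. Without either root array 2 TBL genes were called.

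**Figure D4:**
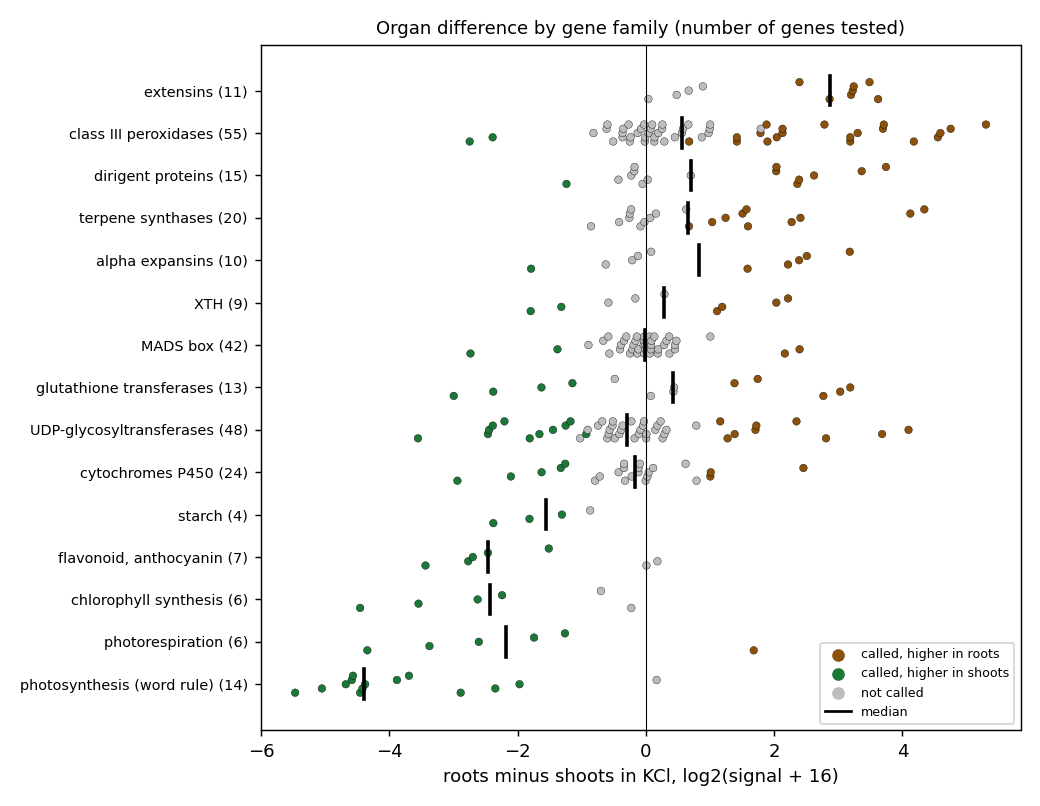
Difference between roots and shoots in KCl (horizontal axis, log2(signal + 16)) for the genes of 15 families or pathways, with the number of genes tested in parentheses. Brown points were called higher in roots, green points higher in shoots and grey points neither, and black bars are medians, which run from -4.40 for photosynthesis to 2.87 for extensins.

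Terpene synthases were higher in roots for 10 of 20 genes (50.0%) and in shoots for none at the adjusted threshold of limma, or for 2 at an unadjusted p under 0.05. Over the whole array 7293 of 22746 probe sets reached that unadjusted limit, in either direction. AT3G32030 is measured by a probe set that may read near-identical genes. TPS-CIN, a cineole synthase gene with a near-identical neighbour, had 190.1 and 397 in roots and 0.45 and 1.06 in shoots, with root array 2 above root array 1. AT4G20230 had 74.5 and 102 in roots and 1.61 and 5.42 in shoots, and AT3G29410 had 148 and 137 in roots and 16.02 and 17.5 in shoots. The other 6 calls lay between 0.67 and 1.59, and the count was 4 without either root array. Dirigent proteins, which steer the coupling of phenolic radicals, were higher in roots for 7 of 15 genes (46.7%). AT4G13580 had 342 and 394 in roots and 19.8 and 6.91 in shoots, AT4G11190 had 729 and 689 in roots and 51.7 and 57.2 in shoots, and AT4G11210 and AT2G21100 differed by 2.62 and 2.39. The dirigent genes called in either direction numbered 8, or 5 and 4 without root array 1 and 2. AT1G22900, the dirigent gene higher in shoots, was named after its value was seen and differed by -1.24.

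Genes found by words for large enzyme families were called in both directions. UDP-glycosyltransferases, which attach sugars to small molecules, were called higher in roots for 9 of 48 genes (18.8%) and higher in shoots for 11 (22.9%). UGT72E2, which glucosylates lignin precursors, had 1509 and 1659.9 in roots and 147 and 78.8 in shoots, and UGT71C1 had 1032 and 1065 in roots and 56.8 and 37.3 in shoots. UGT76B1, which glucosylates isoleucic acid and salicylic acid, had 163 and 219 in roots and 19.8 and 7.88 in shoots. UGT88A1 stood opposite with 34.6 and 23.4 in roots and 551 and 468 in shoots. The 20 calls in this family fell to 7 without either root array. Glutathione transferases were higher in roots for 5 of 13 and in shoots for 4. GSTU26 had 587 and 612 in roots and 54.8 and 48.6 in shoots, GSTU28 had 282 and 338 in roots and 29.5 and 18.8 in shoots, and GSTU22 differed by 2.77. GSTU16 had 11.5 and 17.3 in roots and 270.2 and 188 in shoots. Of 24 cytochromes P450, 3 were higher in roots and 5 in shoots. CYP71B5 had 0.25 and 0.40 in roots and 124 and 95.5 in shoots, and its relative CYP71B37 had 258 and 184 in roots and 25.05 and 28.2 in shoots. CYP71B22 and CYP71B28 differed by -2.10 and -1.62. The 8 calls among cytochromes P450 fell to 2 without root array 1 and to 3 without root array 2.

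Sugar and hormone genes divided by member. Among 14 SWEET sugar transporters, SWEET11, which loads sucrose into the phloem of leaves, had 184 and 186 in roots and 1073 and 966 in shoots, and SWEET1 had 34.6 and 51.3 in roots and 232 and 358 in shoots. The vacuolar transporter SWEET16 had 405 and 434 in roots and 105 and 68.9 in shoots, and SWEET14 differed by 1.58. Without either root array 3 SWEET genes were called, against 5, and SWEET14 was missed. GH3 enzymes conjugate hormones to amino acids. GH3.17 had 607 and 798 in roots and 181 and 149 in shoots, and GH3.3 had 10.1 and 17.03 in roots and 117 and 111 in shoots, so these auxin-conjugating members were higher in opposite organs. Beta-glucosidases were called in shoots for 4 of 21 and in roots for 1, BGLU15 with 305 and 372 in roots and 70.7 and 57.4 in shoots. BGLU44 had 36.9 and 44.4 in roots and 447 and 607 in shoots, and BGLU40 and BGLU31 differed by -1.96 and -0.69. Serine carboxypeptidase-like genes were called for 4 of 29 in each direction, including scpl25 at -2.42, scpl35 at -2.21, SCPL34 at -2.14 and scpl28 at 1.53. Without either root array 3 beta-glucosidases and 3 carboxypeptidase-like genes were called. Glucosinolate synthesis was higher in shoots for 2 of 3 genes: BCAT4, the first step of methionine chain elongation, had 126 and 122 in roots and 1062 and 398 in shoots, and the glucosyltransferase gene AT2G31790 had 32.6 and 54.95 in roots and 323 and 196 in shoots. Neither was called without root array 1, and BCAT4 was also missed without root array 2. AIM1, of fatty acid beta-oxidation, differed by -0.65 ± 0.16 (SE; limma, adjusted p = 0.0446), and 6 of 13 alternative fits did not call it. GER2, which the word rule for germin-like genes matched by symbol alone and which is known as an enzyme gene of GDP-fucose synthesis, differed by 0.78 and was missed by 3.

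Reference genes and some other groups, several of them of 1 gene, gave no call. AT5G46630, AT4G34270 and AT2G28390, widely used to normalise expression, differed by 0.29, 0.34 and 0.04, with adjusted p-values from limma of 0.258, 0.302 and 0.916, and none of the 3 reached an unadjusted p under 0.05. No WRKY gene of 7 and no bHLH gene of 3 found by words was called by limma. An unadjusted p under 0.05 was reached by 2 and 1 of them: WRKY22 at -0.90, WRKY6 at 1.14 and the bHLH gene AT1G22490 at -1.02. Over the whole array 7293 of 22746 probe sets reached it, so these counts do not set the families apart. Without shoot array 1 or 2 limma called 1 or 2 WRKY genes, and without shoot array 2 it called 1 bHLH gene. The bHLH gene next by p, ILR3, differed by 0.25. NAC014 differed by -0.53, the aquaporin interactor AQI by 0.37 and the pollen histone gene MGH3 by -0.03. The peroxidase PRX52, the oleosin OLEO3 and the wax synthase WSD1 differed by 0.26, -0.34 and -0.08. NAC014, AQI, MGH3, PRX52, OLEO3, WSD1 and NRT2.5 were each the only gene found by a list or word rule, so none stands for a family. Peroxidases listed by locus are described above. NRT2.5, a high-affinity nitrate transporter gene of starved plants, had 159.9 and 131 in roots and 102 and 32.6 in shoots, a difference of 1.08 ± 0.43 (SE; limma, adjusted p = 0.153) that was not called, with shoot arrays wide apart. It was called without shoot array 1 and with the replicate number as a block.

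The same organs were measured on 4 further arrays after 20 min of nitrate, which share no sample with the KCl arrays. There 4998 probe sets (22.0%) were called between roots and shoots, 2333 higher in roots (10.3%) and 2665 higher in shoots (11.7%). Of the 4536 calls in KCl, 3743 were called again in the same direction, 82.5% of the calls in KCl and 74.9% of those after nitrate. The sign of the difference was the same after nitrate for 98.9% of the KCl calls, against 78.8% of all probe sets. The labels do not say whether same-numbered arrays of the 2 salts share a culture, so this repeat may not be independent. In shoots psbA had 1878 and 351 in KCl and 1726 and 254 after nitrate. DFR had 526 and 266, then 417 and 210. ATPMEPCRB had 159 and 351, then 146 and 437, and GH9C2 had 120 and 242, then 118 and 261. The same-numbered shoot array was thus higher in both salts for these genes. The lower shoot signals of EXPA7, 25.4 and 8.63, then 3.59 and 16.2, reversed this order. So did those of EXPA18, 2.07 and 35.1, then 28.6 and 26.2. These genes were chosen after their values were seen, and the order over all probe sets was not tested. All 30 genes with the largest differences were called again. AT3G01190 differed by 5.18 after nitrate and by 5.30 in KCl, and AT1G09310 by -6.50 and -6.21. AT5G17820 differed by 3.47 after nitrate and by 4.59 in KCl.

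**Figure D5:**
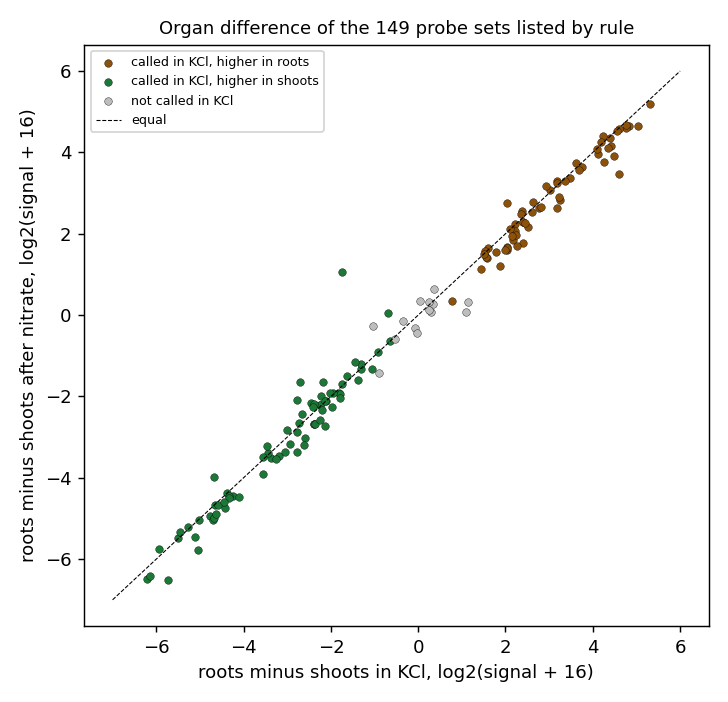
Difference between roots and shoots after nitrate (vertical axis) against that in KCl (horizontal axis), both in log2(signal + 16), for the 149 probe sets named by rule. Brown and green points were called higher in roots or shoots in KCl, and the dashed line marks equality; the green point at 1.05 on the vertical axis is AT1G80380.

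Called on opposite sides in the 2 salts were 2 probe sets. AT1G80380, glycerate kinase of photorespiration, was higher in shoots in KCl, with a difference of -1.74, and higher in roots after nitrate, with one of 1.05. Its signals after nitrate were 865 and 625 in roots and 348 and 348 in shoots, against 72.2 and 61.4 in roots and 268 and 253 in shoots in KCl. Root arrays moved from below both shoot arrays to above both, while the 4 shoot arrays of both salts stayed between 253 and 348. The organ difference changed by 2.79 ± 0.25 (SE; limma on all 8 arrays, adjusted p = 0.0388), and 3 of 22746 probe sets were called for such a change. The other probe set, unnamed here, went from -0.94 in KCl to 1.64 after nitrate, and its change was not called (limma, adjusted p = 0.214).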

How the data were processed

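RNA of roots and shoots was measured on one-colour ATH1 arrays, 1 array per sample. The deposited table holds intensity values on a linear scale, made with MAS5 and GCOS per the submitters' processing notes; the sources used here give no versions, scaling target or filters. The mean after trimming 2% at each end was 100.01 on every array, and the scaling was left unchanged. Detection calls were not used.

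The 64 control probe sets were left out. Values were tested as log2(signal + 16) on the 4 KCl arrays, all 22746 probe sets, with lmFit and eBayes (trend) of limma 3.58.1 in R 4.3.3; tests had 2 residual and a median of 3.48 prior degrees of freedom, were two-sided and were adjusted by Benjamini-Hochberg (threshold 0.05). The nitrate arrays were fitted alone in the same way. A test of the change in organ difference, on all 8 arrays, was added after values were seen. Precision is limited by the number of arrays. The fit was also run on simulated data with independent errors. These hold no shift shared by a whole array, so the run says nothing about such shifts, and its outcome is not given here.

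Names came from the platform probe table, updated to TAIR10.1 gene records: 13513 probe sets matched 1 gene, 503 several and 8730 are unnamed here; 13436 had a record. Of 432 loci in 26 lists, 61 had a probe set with a gene record here. The others may lie among the probe sets without a record, which were tested but not named. By words in symbols and synonyms 24 families were searched for, 11 lists or families matched no gene with such a record, and 14 were added later. The probe set with the highest mean stood for a gene. Lists of floral organ, mineral uptake, nitrogen assimilation and myrosinase genes had no probe set with a gene record, so they are not described.

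The rule for named genes took per direction the 15 called probe sets with the largest difference, provided that they match 1 gene and that root and shoot arrays do not overlap, up to 4 called members per list or family with the largest differences (or 2 with the smallest p where none was called), and all organ markers and reference genes, 149 probe sets in all. Members, lists and the rule were chosen with earlier results of these data known. Figures used matplotlib 3.10.9 in Python 3.11.15.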

Additional observations from a re-analysis of the deposited data

Results flagged for a closer look

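AT1G80380, the glycerate kinase gene of photorespiration, differed between roots and shoots in opposite directions in the 2 salts, and a test of that change passed the threshold. The organ difference after nitrate minus that in KCl was 2.79 ± 0.25 on the log2(signal + 16) scale (SE; limma, adjusted p = 0.0388). All root arrays lay below all shoot arrays in KCl and above them after nitrate. The test was added after the values had been seen.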

How the results depend on the processing

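Of the 135 called probe sets named by rule, 100 were called under each of the 13 alternative fits that tested them (XTH26 had 12, as the filter on low signal left it out) and 0 changed direction; 30 were missed only when a root array was left out, and 5 (AIM1, GH9C2, TBL34, BGLU31 and GER2) also under another fit. The number of calls in KCl was 4500 and 4497 with 1 or 64 added to the signal, 4697 after quantile normalization, 5068 after median centring, 4644 with the filter on low signal, 4494 and 4411 without the trend and with robust eBayes, and 5663 with all 8 arrays in the fit. Leaving out 1 array gave 1483 to 6407 calls in KCl (557 to 3139 higher in roots, 926 to 3268 higher in shoots), 1991 to 5219 after nitrate, and 52 to 122 of the 226 listed genes, against 98 in the main result. At an adjusted p under 0.01 there were 2272 calls in KCl (984 higher in roots and 1288 in shoots) and 2599 after nitrate, by construction fewer. A replicate block, which pairs root and shoot arrays of the same number, gave 5390 calls (2627 and 2763). The labels do not say whether such arrays share more than the number. Deviations of same-numbered root and shoot arrays had a correlation of 0.20 over all probe sets and of 0.302 over those above the filter. Calls were gained by NRT2.5 (replicate block and without shoot array 1), WRKY6 (replicate block, filter on low signal and without shoot array 1), WRKY22 (filter on low signal, all 8 arrays and without shoot array 2) and AT1G22490 (without shoot array 2). Among uncalled genes the sign changed for OLEO3 (-0.83 to 0.16 without each array in turn, positive without shoot array 1), WSD1 (-0.43 to 0.28, at 0.17 without root array 2 and 0.28 without shoot array 2), AT2G28390 (-0.15 to 0.24, negative without shoot array 2), PRX52 (-0.10 to 0.62, at -0.09 without root array 2 and -0.10 without shoot array 1) and MGH3 (0.04 after median centring); the cause was not tested. Differences of low signals are limited by background, and no detection calls were used to bound them.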

Other observations

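Neighbouring genes could lie on opposite sides. GSTU22 and GSTU23 were higher in roots by 2.77 and 1.38 on the log2(signal + 16) scale, and GSTU20, of the same chromosome region by its locus number, was higher in shoots with a difference of -2.38; these were chosen after their values were seen. Among pairs of adjacent genes with a record and both called, 146 of 243 (60.1%) were higher in the same organ. Pairs 10 and 100 genes apart had the same direction in 80 of 155 (51.6%) and 70 of 154 (45.5%).

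Transcripts of at least 16-fold difference were not equally low on both arrays of the other organ. For the 42 such root transcripts, shoot array 1 was above shoot array 2 in 33, with median signals of 36.5 and 20.0, against 47.0% over all probe sets. For the 122 such shoot transcripts, root array 2 was above root array 1 in 92, with medians of 37.1 and 25.0, against 51.9% over all probe sets.

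The 9310 probe sets that were not listed, matched several genes or had no gene record were called more often than the 13436 with 1 gene record, 24.5% against 16.8%, and their largest differences were 5.51 towards roots and -6.15 towards shoots.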
